A study of Mus with 9 samples.

Results

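Chemokines are small secreted proteins that guide moving cells, and this account follows their genes and the genes of their receptors in the hippocampus of senescence-accelerated mice. The members were chosen by gene symbol alone: the CC, CXC, CX3C and XC ligands and the receptors of the same classes. The rule found 68 of the 22206 probe sets (1 probe set is the group of short probes that measures a transcript cluster), and they carry 58 genes out of 22662 symbols on the array. There were 48 ligand probe sets for 38 genes and 20 receptor probe sets for 20 genes. The surplus of probe sets over genes lies on chromosome 4, where 15 probe sets measure 5 genes, whereas the other 53 probe sets measure 53 genes.

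The 3 groups were male senescence-accelerated mouse resistant 1 (SAMR1) mice given vehicle, male senescence-accelerated mouse prone 8 (SAMP8) mice given vehicle, and male SAMP8 mice given trigonelline (TG), a plant alkaloid. TG was given orally for 30 days, 5 mg/kg each day, and dosing went on through 8 days of behavioral testing. The methods give the age of the SAMP8 mice as 16 weeks, with dosing and testing to follow before the hippocampus was taken. SAMP8 is an inbred line with early memory decline and SAMR1 is its related line with normal aging, so the strain comparison contrasts whole genetic backgrounds, not a single gene. Hippocampal RNA went onto 9 Clariom S Mouse arrays, 3 per group, and the vehicle is saline in the sample records and water in the methods. The records and the methods give 3 arrays per group, while the series text speaks of duplicate RNA, and a note on a macrophage cell line attached to each record was not used.

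CC and CXC chemokines are named for the spacing of cysteines near the start of the protein, and most act through receptors that couple to inhibitory G proteins. Homeostatic chemokines such as Cxcl12 place cells in resting tissue, whereas inflammatory chemokines such as Ccl2 call monocytes, neutrophils and T cells to damaged tissue. In the healthy brain, the known resident pair is Cx3cl1, a membrane-bound ligand made by neurons, and Cx3cr1, its receptor on microglia.

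The deposited tables hold 1 average per group and probe set, as log2 signal, and no values per array. The authors' own test columns were set aside, so no difference below has an error, a test or a replicate check, and a difference past 1.5-fold (0.58 on the log2 scale) is a description of the averages. To give the differences a yardstick, the same counts were made over all probe sets and over 1450 probe sets of olfactory and vomeronasal receptors, genes used in the nose that served as a panel of silent genes. A member was taken to lie above background in a group where its average passed the 95th percentile of that panel, which was 5.91 in SAMR1, 5.54 in SAMP8 and 5.60 with TG. Probes differ in brightness, so a member below this limit is not shown to be absent. The tissue label held: the listed markers of neurons, hippocampal neurons and astrocytes lay above background in all 3 groups for every marker found (4, 5 and 5 genes).

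Few of the chemokine system genes stood above background. In all 3 groups it was 16 of the 68 probe sets, against 51.1% of all probe sets on the array, and in at least 1 group it was 24, against 57.7% of all. These counts rest on the panel: with keratin-associated proteins and taste receptors in its place, whose limits were 7.46 in SAMR1, 7.03 in SAMP8 and 7.48 with TG, they were 9 and 15. By those limits Cx3cr1, Cxcr4, Ccl4, Ccl6, Ccl20, Ccl21a, Cxcl3, Ccl11 and Ccl17 were above background in no group and Ccl25 in 2 groups. By the limits used from here on, the other 44 probe sets lay below the limit in every group. Among the receptors only Ccr7, Cx3cr1 and Cxcr4 were above background, each in all 3 groups, and the other 17 receptors were above it in none. Among the ligands, 13 of 48 probe sets were above background in all 3 groups and 21 in at least 1. By class, 10 of the 33 CC ligand probe sets and 2 of the 13 CXC ligands, Cxcl12 and Cxcl14, were above background in all 3 groups. The single CX3C ligand was above background in all groups, and Xcl1 and its receptor Xcr1 in none.

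**Figure D1:**
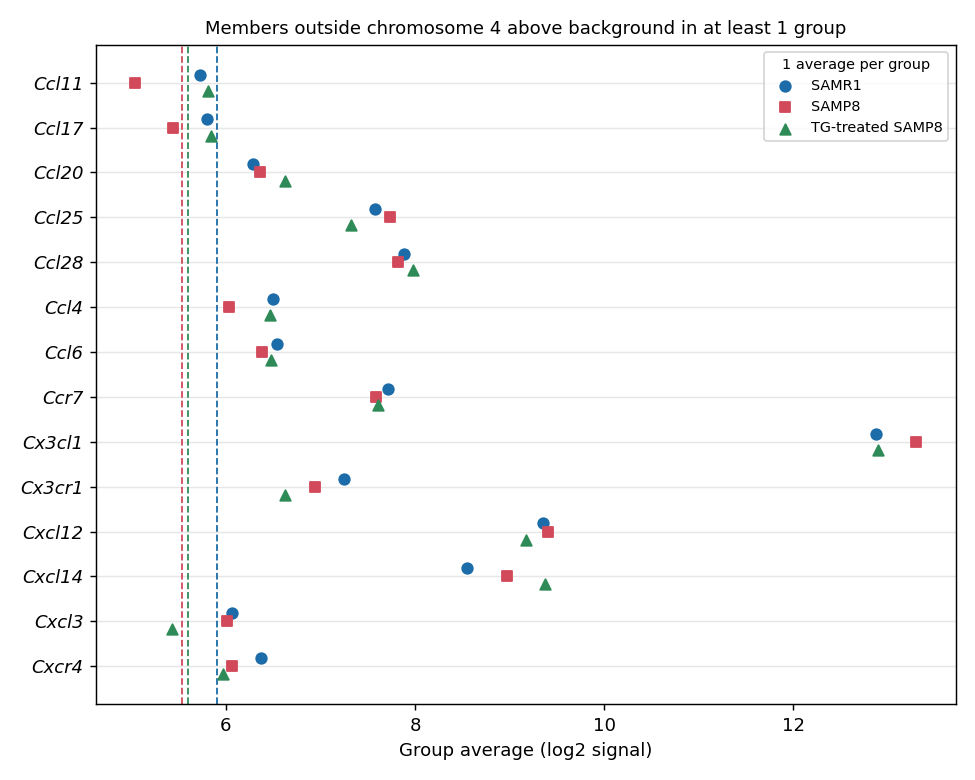
Authors' group averages (log2 signal, horizontal axis) of the 14 members outside chromosome 4 that lay above background in at least 1 group, 1 point per group. The dashed vertical lines are the background limits in the matching colors (5.91 for SAMR1, 5.54 for SAMP8 and 5.60 for TG-treated SAMP8). The SAMR1 and SAMP8 points of the 11 genes above all 3 limits lie within 0.47 of each other, and the TG-treated point of Cxcl14 lies 0.40 above and that of Cxcl3 0.58 below the SAMP8 point.

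Outside chromosome 4, the 11 members above background in all groups differed little between the strains and with TG. None of them passed 1.5-fold between SAMP8 and SAMR1 (differences from -0.47 to 0.43, median -0.06) or between TG-treated SAMP8 and SAMP8 (from -0.41 to 0.44, median 0.02). Since RNA came from whole hippocampus, fewer cells of a type and less RNA per cell cannot be told apart in any of these values.

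Cx3cl1 (GRCm38 chr8:94772180-94782427), the neuronal ligand also known as fractalkine, averaged 12.87 in SAMR1, 13.30 in SAMP8 and 12.89 after TG. The SAMP8 average was therefore the high one, by 0.43 over SAMR1 and 0.41 over TG-treated SAMP8, and the other averages differed by 0.02. The 5 markers of hippocampal neurons found had a median difference of 0.44 between the strains and -0.38 with TG. Of these, Prox1 was at 0.59 and -0.85, Wfs1 at 0.44 and -0.48 and Calb1 at 0.70 and -0.38. The other markers hardly differed, Neurod6 at -0.01 and 0.03 and Fibcd1 at 0.06 and 0.05. For the 4 general neuronal markers the medians were 0.06 and 0.03. The part of these markers in the differences of Cx3cl1 was not tested. Its receptor Cx3cr1 (chr9:120048683-120068296) averaged 7.25, 6.94 and 6.63 in the same order of groups. Each step down was 0.31, and the whole distance from SAMR1 to TG-treated SAMP8, -0.62, was past 1.5-fold. Cx3cr1 marks microglia, and 7 of 12 other microglial markers were above background in all groups, against 51.1% of all probe sets. The summed linear signal of the 12 was 9751 in SAMR1, 10710 in SAMP8 and 10748 after TG. Of the 12, 4 were higher and 2 lower in SAMP8 than in SAMR1 past 1.5-fold, where 5% and 6.08% of all probe sets were. After TG, 1 was higher than in SAMP8, where 4.48% of all were. It was C1qa (5.02, 4.41 and 5.08), also among the 2 lower between the strains and below background in all groups. C1qb, among the 4 higher, was above background in 1 group. Siglech (7.45, 7.19 and 6.99) and Tmem119 (5.64, 5.56 and 5.53) had their averages in the order of Cx3cr1, whereas Aif1 (5.71, 7.22 and 6.78) and P2ry12 (11.17, 12.03 and 11.60) did not. The part of these markers in the difference of Cx3cr1 was not tested.

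Cxcl12 (chr6:117168535-117181368), the homeostatic ligand that holds stem cells and developing neurons in place, averaged 9.35, 9.40 and 9.17 in SAMR1, SAMP8 and TG-treated SAMP8. Its receptor Cxcr4 (chr1:128588199-128592299) averaged 6.37, 6.06 and 5.97. Neither passed 1.5-fold in any of the 3 pairs of groups. Ackr3, a scavenging receptor for the same ligand that lies outside the member rule, averaged 5.68, 5.88 and 5.52 and was above background in SAMP8 alone.

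Cxcl14 (chr13:56288643-56296811), a homeostatic CXC chemokine found in interneurons and epithelia, averaged 8.55 in SAMR1, 8.97 in SAMP8 and 9.37 after TG. The steps were 0.42 and 0.40, so that the TG-treated average lay 0.82 above SAMR1, a 1.77-fold difference in linear signal. It was the only member above background outside chromosome 4 that was past 1.5-fold higher in TG-treated SAMP8 than in SAMR1.

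Ccr7 (chr11:99144199-99155077), the receptor that leads dendritic cells and T cells into lymph nodes, averaged 7.71, 7.59 and 7.61 and hardly differed between groups. The epithelial ligands Ccl28 (7.88, 7.82 and 7.98) and Ccl25 (7.58, 7.73 and 7.32) stayed within 0.41 in every pair of groups. Their known receptors lay below background, Ccr10 for Ccl28 at 4.58, 3.74 and 4.02, Ccr3, a further receptor of Ccl28, at 5.46, 5.38 and 5.42, and Ccr9 for Ccl25 at 3.90, 3.97 and 3.85.

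Of the inflammatory ligands, Ccl4, which attracts monocytes and T cells, averaged 6.50, 6.03 and 6.47 in SAMR1, SAMP8 and TG-treated SAMP8. The SAMP8 average was the low one, by 0.47 and 0.44. Ccl6, a myeloid CC ligand made by microglia, averaged 6.54, 6.38 and 6.48. Ccl20, the ligand of Ccr6, averaged 6.29, 6.36 and 6.63. Neither differed by more than 0.34 in any pair of groups.

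The remaining 3 members above background outside chromosome 4 were so in some groups only. Cxcl3 (chr5:90786101-90788093), a neutrophil attractant acting through Cxcr2, averaged 6.06, 6.01 and 5.43. It was above background in SAMR1 and SAMP8 and below it after TG. Ccl17, a ligand of Ccr4, averaged 5.80, 5.44 and 5.84, and Ccl11 (chr11:82057832-82062955), also called eotaxin, averaged 5.73, 5.04 and 5.81. Both were above background in TG-treated SAMP8 alone, and both had TG-treated averages within 0.08 of SAMR1, whose limit was higher. Cxcr2 at 5.83, 5.48 and 5.59, and Cxcr3 at 5.58 after TG, lay just under the limits.

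The chemokine genes of chromosome 4 formed the main exception to these small differences. The 5 genes, Ccl19, Ccl21a, Ccl21b, Ccl21c and Ccl27b, belong to a stretch that the reference genome holds in several near-identical copies, so probes of 1 probe set may read more than 1 copy. RefSeq (GRCm38.p6) places Ccl27b at chr4:42650563-42656008, Ccl19 at chr4:42754525-42756365, Ccl21a at chr4:42772860-42773991 and Ccl21b at chr4:42173120-42256825. In all, 10 member probe sets carry a further symbol beside the member's, all of them in this group. The 10 are the 4 of Ccl27b, 1 of Ccl19 and the 5 of the Ccl21 genes.

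Ccl27b encodes a CC ligand of the skin chemokine type, which acts through Ccr10. Its 4 probe sets averaged between 8.19 and 8.26 in SAMR1, between 10.23 and 10.40 in SAMP8 and between 11.14 and 11.19 in TG-treated SAMP8. They were thus ordered alike, lowest in SAMR1 and highest after TG. All 4 carry further symbols and may read the same copies, so their likeness does not stand for repeats of a group. SAMP8 exceeded SAMR1 by 2.02 to 2.14, or 4.06-fold to 4.41-fold in linear signal. TG-treated SAMP8 exceeded SAMP8 by 0.77 to 0.91, or 1.71-fold to 1.88-fold. Of the 4 probe sets, 2 have the same averages to the last digit in all groups, so they do not count as separate readings. Ccr10 had the opposite order between the strains, 4.58 in SAMR1 and 3.74 in SAMP8, below background in all groups.

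Ccl19, a homeostatic ligand of Ccr7 that draws dendritic cells and T cells, has 6 probe sets. In 5 of them the SAMR1 averages lay between 5.25 and 5.82, below background, and the SAMP8 averages between 7.32 and 8.53. The differences of the averages ran from 2.01 to 2.84. With SAMR1 set to its background limit of 5.91, the SAMP8 averages were 2.66-fold to 6.15-fold above that limit. The 5 probe sets passed background through the SAMP8 groups alone, so part of this margin follows from that choice. These folds rest on the panel, since the alternative SAMR1 limit of 7.46 falls among these SAMP8 averages, and the averages carry no error. After TG the same 5 averaged between 7.49 and 8.95, with differences from SAMP8 of -0.03 to 0.53, none past 1.5-fold. The other Ccl19 probe set was below background in all groups, at 4.35, 4.67 and 5.39, and it differed by 0.32 between the strains and by 0.72 between TG-treated and vehicle-treated SAMP8.

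The 6 Ccl19 probe sets do not sit at the same copy. Numbers of the chromosome 4 probe sets follow position, in 99.3% of the 1144 steps between 1145 uniquely placed probe sets. By that order the Ccl19 probe set with low signal in all groups lies between Fam205a2 (chr4:42522437-42537578) and Gm12394 (chr4:42790214-42804092), the interval that holds the RefSeq Ccl19 gene. Of those with higher signal in SAMP8, 1 lies between Fam205a4 (chr4:41942295-41971858) and Gm10600 (chr4:42244297-42244748), 1 between Fam205a3 (chr4:42294525-42324072) and 4930578G10Rik (chr4:42670290-42871806), and the rest elsewhere or on unplaced contigs. The strain difference of Ccl19 was therefore read by probe sets assigned to the additional copies, and which copy gave the RNA cannot be told apart.

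The Ccl21 genes encode the other homeostatic ligands of Ccr7. Of their 5 probe sets, 1 of Ccl21a was above background in all groups, at 6.68 in SAMR1, 6.08 in SAMP8 and 6.06 after TG. It was lower in SAMP8 than in SAMR1 by 1.52-fold (-0.60 on the log2 scale), opposite to Ccl19 and Ccl27b. The other 4, at 4.12 to 5.25, lay below background in all groups, with strain differences from -0.22 to 0.32. A Ccl21b probe set and the Ccl21c probe set each have averages identical to those of a probe set for Gm13304, a gene model of the same stretch.

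Other genes of the stretch differed between the strains as well. The span from Ccl21b to Ccl21a (chr4:42173120-42773991) holds 6 probe sets of other genes, and 4 of them were higher in SAMP8 past 1.5-fold, with a median over all 6 of 3.71. The largest difference of the 6 was that of Gm10600, which averaged 5.07 in SAMR1, 12.76 in SAMP8 and 12.72 after TG. None of the 6 passed 1.5-fold between TG-treated SAMP8 and SAMP8 (median 0.22). On chromosome 4 in all, 6.96% of 1351 probe sets were higher in SAMP8 past 1.5-fold, and 4.07% were higher after TG than in SAMP8. The rest of the 6, which carry the symbol Il11ra2, differed by 0.24 and -0.48 between the strains. The Ccl21a probe set above background was lower in SAMP8, at -0.60. The strain difference of Ccl19 and Ccl27b thus stood among neighbors of which some, but not all, had strain differences of the same direction. The part of these neighbors in it was not tested.

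**Figure D2:**
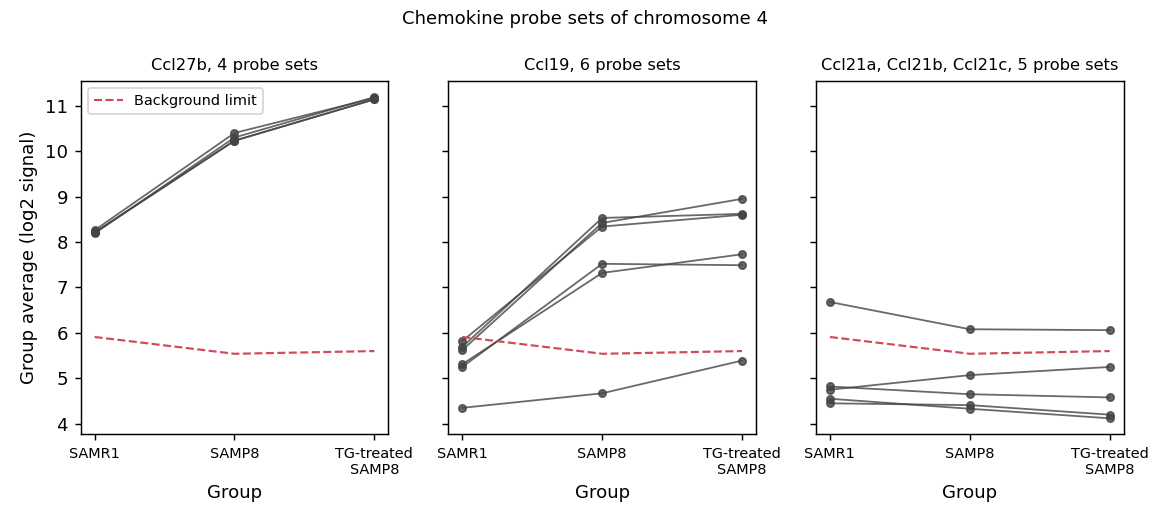
Authors' group averages (log2 signal, vertical axis) of the 15 chromosome 4 chemokine probe sets in the 3 groups, 1 line per probe set, with the background limit of each group dashed in red. The lines only join the averages of 1 probe set. All 4 Ccl27b lines climb at both steps, 5 of the 6 Ccl19 lines climb between SAMR1 and SAMP8 by 2.01 to 2.84, and of the Ccl21 lines the one above background is lower in SAMP8 than in SAMR1 by 0.60.

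Over all 68 probe sets, 10 were higher in SAMP8 than in SAMR1 past 1.5-fold, where 5% of all probe sets were, and 5 were lower, where 6.08% of all were. The median difference of the members was -0.03, beside 0.00 for all probe sets, with 32 higher, 35 lower and 1 equal. Of the 10 higher ones, 9 were Ccl27b and Ccl19 on chromosome 4. The remaining one was Ccr6 (chr17:8236041-8258519), the receptor of Ccl20, at 3.90 in SAMR1, 4.60 in SAMP8 and 4.19 after TG, below background in all groups. The 5 lower ones were Ccl2 (5.27 in SAMR1 and 4.43 in SAMP8), the main monocyte attractant, Ccr10 (4.58 and 3.74), Ccl11 (5.73 and 5.04), Ccl9 (4.92 and 4.28), a myeloid CC ligand, and the Ccl21a probe set above. All of the lower ones but that of Ccl21a lay below background in both groups.

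Differences of that size below background were also frequent in the silent panel. There, 11% of probe sets were lower in SAMP8 past 1.5-fold and 1.45% were higher, and the panel's median difference was -0.11. Of the 46 members below background in both strains, 42 had differences between the panel's 5th and 95th percentiles (-0.78 and 0.38). The 4 outside that band were Ccl2 and Ccr10, each at -0.84, and Ccr6 and Cxcl13 at 0.70 and 0.56. The group of 14 members on chromosome 11, which includes the cluster of Ccl2, Ccl7, Ccl11, Ccl12 and Ccl8, had 12 lower averages in SAMP8 (median -0.19), while the panel had 939 lower of 1450.

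**Figure D3:**
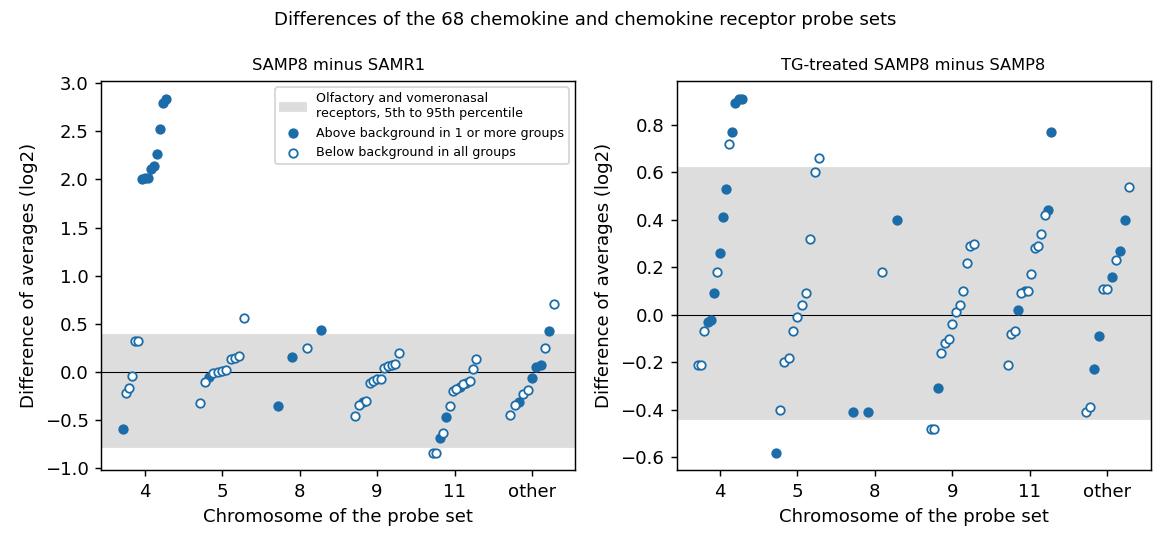
Differences of the authors' averages (log2, vertical axes with their own scales) for the 68 member probe sets by chromosome, sorted by size within each chromosome, for SAMP8 minus SAMR1 and for TG-treated SAMP8 minus SAMP8. The grey band spans the 5th to 95th percentile of the 1450 silent receptors (-0.78 to 0.38 and -0.44 to 0.62), filled points lie above background in at least 1 group, and the 9 points from 2.01 upward in the strain panel are Ccl27b and Ccl19.

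Between TG-treated and vehicle-treated SAMP8, 8 members were higher past 1.5-fold, where 4.48% of all probe sets were, and 0 were lower, where 3.74% of all were. The median of the members was 0.10 and that of all probe sets 0.01, with 41 members higher and 27 lower. The strain and treatment comparisons share the SAMP8 averages, so a SAMP8 average that is low or high by itself moves both differences in opposite directions. Of the 8, 4 were the Ccl27b probe sets and 1 was the Ccl19 probe set of low signal.

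The other 3 were Ccl11, Ccl24 and Ccl26, the eotaxins, which attract eosinophils through Ccr3. Ccl11 averaged 5.04 in SAMP8 and 5.81 after TG, a difference of 0.77, and its SAMR1 average was 5.73. Ccl26 (chr5:135560448-135563569) averaged 4.82 in SAMR1, 4.50 in SAMP8 and 5.16 after TG. Ccl24 (chr5:135569935-135573123), its neighbor, averaged 3.54, 3.56 and 4.16. All 3 were thus higher after TG by 0.60 to 0.77, but only Ccl11 passed the background limit, and only in the TG-treated group. With SAMP8 set to its limit, the TG-treated average of Ccl11 was 1.21-fold above that limit. This margin comes from the group through which Ccl11 passed, and by the alternative panel Ccl11 was above background in no group. Ccr3 itself stayed below background with differences of no more than 0.08 among the groups. In the silent panel, 6.14% of probe sets were higher after TG past 1.5-fold and 2.41% were lower, with a median of 0.06.

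Of the 44 members below background in both SAMP8 groups, 40 had differences between the panel's percentiles for this comparison (-0.44 and 0.62). Among those outside it were Ccl26, the low Ccl19 probe set and Ccrl2, the last at -0.48. Cxcl3 came closest to the 1.5-fold limit on the lower side, at -0.58. With the TG-treated group at its background limit, the SAMP8 average of Cxcl3 was 1.33-fold above that limit. By the alternative panel Cxcl3 was above background in no group. Ccl24, at 0.60, was the nearest above the 1.5-fold limit on the higher side, with Cxcr3 next below at 0.54.

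Cxcr3, the receptor of interferon-induced chemokines on T cells, averaged 5.49, 5.04 and 5.58 in SAMR1, SAMP8 and TG-treated SAMP8, below background in all. Its ligands Cxcl9 (3.74, 3.75 and 3.84), Cxcl10 (3.35, 3.34 and 3.27) and Cxcl11 (3.26, 3.40 and 3.44) were below background too and differed by no more than 0.18. Of the 6 T cell markers found, Cd3e, Cd3d, Cd3g and Cd8a were below background in all groups, Cd4 (6.43, 6.13 and 6.14) was above it in all groups and Cd2 (5.67, 5.77 and 6.16) in both SAMP8 groups. All 5 B cell and all 6 neutrophil markers were below background in all groups. Cxcl13, which draws B cells through Cxcr5, averaged 4.86, 5.42 and 5.02, and Cxcr5 averaged 3.21, 3.27 and 3.17. Ccl2 averaged 4.85 after TG, between its SAMP8 and SAMR1 averages, and its receptor Ccr2 averaged 3.72, 3.26 and 3.22. None of these lay above background.

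The members below background in all groups were 39 probe sets outside chromosome 4 and 5 on it. The 39 averaged between 3.08 and 5.83 in SAMR1, between 2.96 and 5.48 in SAMP8 and between 3.13 and 5.59 after TG. Their differences ran from -0.84 to 0.70 between the strains (median -0.08) and from -0.48 to 0.66 with TG (median 0.09). Among them were the inflammatory ligands Ccl3, Ccl5, Ccl7, Ccl8 and Ccl12, the neutrophil attractants Cxcl1, Cxcl2 and Cxcl5, and the receptors Ccr1, Ccr2, Ccr4, Ccr8, Cxcr1 and Cxcr6, none of which passed 1.5-fold in any pair of groups. Ccl5, a T cell and monocyte attractant, averaged 3.08, 3.11 and 3.28, and Ccr1, a receptor of Ccl3 and Ccl5, averaged 3.56, 3.60 and 3.89.

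**Figure D4:**
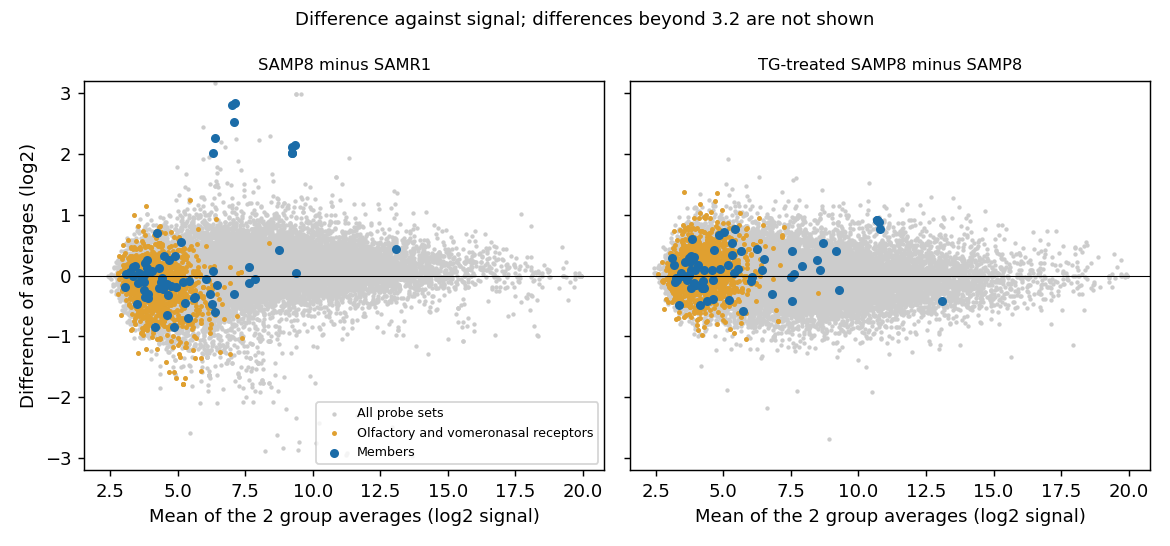
Difference of the authors' averages (log2, vertical axis) against the mean of the averages compared (log2 signal, horizontal axis) for all probe sets in grey, the 1450 olfactory and vomeronasal receptors in orange and the 68 members in blue; the axis ends at 3.2, with 16 probe sets beyond it in the strain panel and 0 in the TG panel. Most members lie in the cloud of the silent receptors, and the blue points from 2.01 upward in the strain panel are Ccl19 and Ccl27b.

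Between TG-treated SAMP8 and SAMR1, 12 members were higher past 1.5-fold, where 5.62% of all probe sets were, and 5 were lower, where 4.83% of all were, and the members' median was 0.00. The higher ones were the 4 Ccl27b probe sets (2.91 to 3.00), the 6 Ccl19 probe sets (1.04 to 3.33), Cxcl14 (0.82) and Ccl24 (0.62). With SAMR1 at its limit from the panel used here, the 5 Ccl19 probe sets above background after TG lay 1.58 to 3.04 above that limit. They passed background through the SAMP8 groups alone, so part of this margin follows from that choice. The lower ones were Ccrl2 (-0.83), a receptor-like protein that presents chemerin and does not signal, Ccl9 (-0.72), Cxcl3 (-0.63), Cx3cr1 (-0.62) and Ccl21a (-0.62). Of those lower, Cxcl3, Cx3cr1 and Ccl21a were above background in at least 1 of the groups compared. The averages of Ccl27b and Ccl19 therefore stood further from SAMR1 after TG than before in all 4 and in 5 of 6 probe sets. These probe sets may read the same copies and do not count as repeats, and 2 of the 4 have the same averages. The 5 include the Ccl19 probe set below background in all groups, and no other Ccl19 probe set passed 1.5-fold between the SAMP8 groups.

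The pathway around the receptors was measured at more of its members. Of 28 listed names for G proteins, arrestins, receptor kinases and effectors of migration, 24 were found. Of these, 18 were above background in all groups, against 51.1% of all probe sets. In SAMP8 against SAMR1, 2 were higher past 1.5-fold and 0 lower, where 5% and 6.08% of all probe sets were. The 2 were Elmo1, an activator of Rac (9.47 in SAMR1, 10.55 in SAMP8 and 10.06 after TG), and Pik3cg, the kinase subunit activated by G proteins, at 4.08 and 4.89, below background. In TG-treated SAMP8 against SAMP8, 1 was higher and 0 lower, where 4.48% and 3.74% of all were. The higher one was Arrb1, an arrestin that ends receptor signaling, at 13.29 in SAMR1, 12.93 in SAMP8 and 13.53 after TG. The list medians were 0.12 and -0.15, beside 0.00 and 0.01 for all probe sets.

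Of 7 atypical receptors and platelet chemokines outside the rule, none passed 1.5-fold in any pair of groups, and Ackr1, which carries chemokines across vessel walls, was above background in all groups at 6.81, 6.87 and 6.69. Of 8 proteases that shed or trim chemokines, the sheddases of Cx3cl1 and Cxcl16, Adam10 (10.75, 10.87 and 10.65) and Adam17 (7.90, 7.97 and 7.85), were above background in all groups and none passed 1.5-fold between the strains. After TG, Elane, a neutrophil elastase, was the only protease past it, at 3.72 in SAMP8 and 4.47 after TG, below background. Of all probe sets, 4.48% were higher past 1.5-fold in that comparison.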

How the data were processed

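Hippocampal RNA of 9 mice, grouped by the sample records, was hybridized to Clariom S Mouse arrays. The authors summarized intensities by SST-RMA in the Transcriptome Analysis Console (version 4.0.2 in the methods, 4.0.1 in the series text) with an mm10 annotation. The deposited values used here are the authors' group averages as log2 signal, in 2 tables whose SAMP8 averages differ for 0 probe sets. The tables' fold changes, p-values and false discovery rates are the authors' own comparisons and were not used. Values per array were not used, so no error, interval or test could be computed, and 3 arrays per group limit the precision.

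Differences of log2 averages were computed for the 3 pairs of groups, with no added constant and no filter on low signal, and called past 1.5-fold. Background was the 95th percentile of the Olfr, Vmn1r and Vmn2r probe sets in each group. Counts at the 1.5-fold limit and above background were made over all 22206 probe sets too, but not at the other fold limits. The scripts were tested on simulated data. Positions are from RefSeq (GRCm38.p6), which placed 57 of the 58 genes. No probe, promoter or protein sequences were used here. Described in full were the members above background in at least 1 group, those past 1.5-fold, 4 inflammation genes that the study displays (Ccr6, Cx3cl1, Cxcl13, Cxcr3) and the partners of these. At most 6 other members were named by largest difference. Further members below background and past 1.5-fold in no pair of groups, such as Ccl3, Ccl7, Cxcl1 and Cxcr6, were named as examples outside this rule. Ccr1, Ccr2, Ccl5 and the neighbor Gm10600 were chosen for naming once their values had been seen. The members and lists were chosen with earlier results of these data known. The rule left out 1 further probe set, and some results are not reported here. The alternatives were other fold limits, scalings, background panels, member subsets and, added after seeing the data, subtraction of the panel's median difference. Python 3.11.15, numpy 2.4.6, pandas 2.3.3 and matplotlib 3.10.9 were used.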

Additional observations from a re-analysis of the deposited data

How the results depend on the processing

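With keratin-associated proteins and taste receptors as the silent panel, 9 members in place of 16 were above background in all groups and 15 in place of 24 in at least 1. At a 1.2-fold limit, 15 members were higher and 16 lower in SAMP8 than in SAMR1, and 22 were higher and 9 lower after TG than in SAMP8. Against SAMR1, 20 were higher and 13 lower after TG. At a 2-fold limit, 9 were higher in SAMP8 and 10 after TG than in SAMR1, and 0 were lower in either SAMP8 group than in SAMR1. Between TG-treated SAMP8 and SAMP8, 0 were higher and 0 lower at that limit. The shares over all probe sets were not counted at these limits. Quantile normalization left 3 lower in SAMP8 than in SAMR1 and 1 lower after TG than in SAMP8, and centering on the group medians also gave 1 for the latter. Among members above background in at least 1 of the groups compared, 1 was lower in SAMP8 than in SAMR1 (median difference 0.28). With this filter 5 were higher after TG than in SAMP8 (median 0.21) and 3 were lower after TG than in SAMR1. Of all probe sets passing the same filter, 5.28%, 5.11% and 5.4% were so. Some members passed only through the group where they are high, as Ccl19 did in SAMP8 and Ccl11 after TG. The filter thus favors higher values there, and these medians are no separate support. With probe sets that carry member symbols alone, 5, 4 and 7 were higher in SAMP8 against SAMR1, TG-treated SAMP8 against SAMP8 and TG-treated SAMP8 against SAMR1, and without chromosome 4 these were 1, 3 and 2, fewer because those probe sets were left out. Subtracting the panel's median difference, an alternative chosen after seeing the data, left 2 lower in SAMP8 than in SAMR1 (median 0.09), 1 lower after TG than in SAMP8 and 2 lower after TG than in SAMR1. For the single probe sets past 1.5-fold, centering on the group medians and quantile normalization were run, and of their values 72 moved by less than 0.1 on the log2 scale, 8 by more, and none changed sign. For the other shifts the cause was not tested.

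No paired analysis was possible because the deposited columns are group averages, and leaving out each array was not run for the same reason. Signal near the background limit bounds what can be said of 44 of the 68 probe sets: their differences are as wide as those of silent receptors for most members, and which of them differ between mice cannot be read from 1 average per group.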

Other observations

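Marker lists of other cell types that can come along with a hippocampal dissection gave values beside the chemokine genes. Ttr, the thyroid hormone carrier made in quantity by the choroid plexus, averaged 8.45 in SAMR1, 9.33 in SAMP8 and 10.05 after TG. The 6 choroid plexus markers had 3 above background in all groups, where 51.1% of all probe sets were. Their summed linear signal was 572, 943 and 1304 in the same order. The list did not move as a whole: between TG-treated SAMP8 and SAMP8, Kl differed by -0.79, Folr1 by -0.40, Otx2 by -0.17 and Kcnj13 by 0.01, and the list's median was -0.08. Ccl27b and Cxcl14 have their averages in the order of Ttr, and the part of this tissue in their differences was not tested. Of 7 markers of meningeal fibroblasts, Ogn and Dcn were lower after TG than in SAMP8 by more than 1.5-fold, where 3.74% of all probe sets were. Ogn averaged 7.81, 8.53 and 7.43 and Dcn 10.66, 10.15 and 9.38. Lum differed by 0.46, Col1a2 by 0.17 and Col1a1 by 0.13 in the same comparison, and the list's median was -0.15. The summed linear signal of the 7 was 2272, 1852 and 1224.

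Of 6 endothelial markers, 5 were above background in all groups, against 51.1% of all probe sets. The list's median difference was 0.23 between SAMP8 and SAMR1 and -0.28 between TG-treated SAMP8 and SAMP8. Border macrophages are known to express chemokine receptors, and of their 6 markers only Mrc1 passed 1.5-fold between the strains. It averaged 5.51 in SAMR1, 6.51 in SAMP8 and 6.27 after TG, and 5% of all probe sets were higher in SAMP8 past 1.5-fold. None of the 6 T cell markers found passed 1.5-fold in either comparison.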
